A study of Ovis aries with 8 samples.

Results

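The 10 genes described here, DIRAS3, NNAT, PEG10, SGCE, MEST, PEG3, MAGEL2, GNAS, DLK1 and GRB10, are known in mammals as imprinted genes. They were taken by name from a table of 27057 rows, where each matched 1 row. The table comes from polyadenylated RNA of cultured fetal sheep hepatocytes in 4 cell preparations. Each preparation gave 1 library after 24 h of metformin, an antidiabetic drug, and 1 untreated library that the labels call basal, so there are 4 libraries per group. No time is listed for the basal libraries. The dose of metformin, the vehicle and the animals behind a preparation are not given in the sources used here, so the spread between preparations may not be that between animals. The genes were chosen with their change under metformin already known. Their levels and changes are therefore given as a description, and where the fit over all genes is said to call one of them, that is no independent test of it.

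An imprinted gene is transcribed mainly from the copy inherited from 1 parent. In most cases the copies differ in DNA methylation laid down in the egg or sperm at a control region, which may be on the silent or the transcribed copy. Many such genes act on fetal growth and are transcribed highly in fetal organs and placenta, the liver included, with levels that drop after birth. Paternally expressed genes are often growth promoting and maternally expressed genes often growth restraining. In mouse or human, DIRAS3, NNAT, PEG10, SGCE, MEST, PEG3, MAGEL2 and DLK1 are transcribed from the paternal copy. GRB10 is transcribed from the maternal copy in most tissues of the mouse, and GNAS makes several transcripts of different parental origin. The table holds a total level per gene and no allele, so neither imprinting nor its loss was measured.

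Levels are FPKM, fragments scaled to transcript length and library size, and can be set side by side between genes. Without metformin the highest of these genes was PEG10, which stood at place 45 from the top among the 13141 genes that were tested, followed by NNAT at place 101 and DIRAS3 at place 266. With metformin PEG10 stood at place 283, NNAT at place 878 and DIRAS3 at place 3010. GNAS, PEG3 and SGCE were between 155.7 and 237.5 FPKM on average in basal libraries, DLK1 was at 88.3, and GRB10, MEST and MAGEL2 were at 27.4, 19.4 and 7.80. PEG10 was above NNAT in each basal preparation, but their ranges overlapped, as did those of DIRAS3 with NNAT and PEG3, of PEG3 with GNAS, SGCE and DLK1, of SGCE with DLK1, and of GRB10 with MEST. MAGEL2 lay below all of them in every basal library. None of 10 hepatocyte markers was at 0 throughout, and their summed FPKM was 10871 or more in every library.

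Of the 10 genes, 8 were lower and 1, GRB10, was higher with metformin at an adjusted p under 0.05 (limma, Benjamini-Hochberg over all genes tested), and DLK1 did not pass. Over all genes tested 24.1% fell and 19.8% rose. Without pairing the libraries by preparation, 6 of the 10 fell and NNAT, MEST and GRB10 did not pass. In that unpaired fit 19.2% of all genes tested were called in either direction. In 6 of the 10 genes every metformin library was below every basal library, as in 12.6% of all genes tested, and in 0 it was above, as in 13.3%. The share of all genes lower in each of the 4 preparations was 32.2%, and the share higher in each was 28%, while 8 of the 10 genes were lower and 1 was higher in each. The median log2 change of the 10 genes was -1.30, against -0.04 over all genes tested. Since the genes were chosen on this contrast, these counts carry no evidence of their own. Log2 changes were taken after adding 1 to each FPKM, so those of genes with few FPKM, such as MAGEL2, come out too small.

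**Figure D1:**
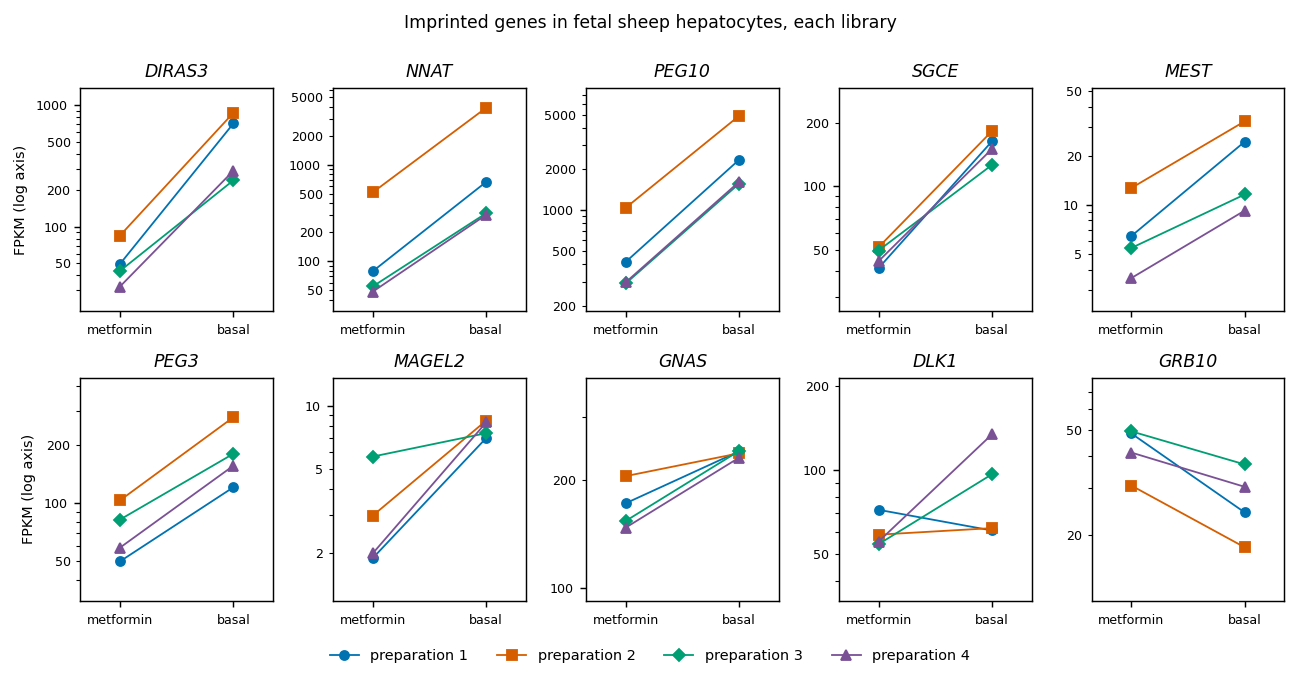
FPKM of the 10 imprinted genes on log axes, with metformin libraries on the left and basal libraries on the right; each line joins both libraries of a preparation. Lines slope the same way in every preparation for all genes but DLK1, and preparation 2 is the highest of 4 for NNAT and PEG10 in both groups.

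PEG10 and SGCE are neighbours. PEG10 is a gene domesticated from a retrotransposon that is essential for the placenta in mouse, and SGCE encodes epsilon-sarcoglycan, a membrane protein of the dystrophin complex. In mouse and human they lie head to head and share a promoter region that is methylated on the maternal copy. In the RefSeq annotation of a newer sheep assembly, ARS-UI_Ramb_v3.0, they were also adjacent in gene order. PEG10 had 417, 1042, 290.1 and 296 FPKM in the metformin libraries of preparations 1 to 4, against 2344, 4922, 1566 and 1616 FPKM in the basal libraries. The groups did not overlap, and preparation 2 was the highest in each. SGCE had 41.0, 51.5, 49.7 and 44.3 FPKM with metformin, against 163, 183, 126 and 150.4 FPKM in basal libraries. SGCE did not overlap either, and its levels lay much closer together than those of PEG10: the highest basal preparation was 1.45 times the lowest for SGCE and 3.14 times for PEG10.

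PEG10 changed by -2.40 ± 0.10 on the log2 scale (SE) and SGCE by -1.71 ± 0.13. PEG10 had 4.73 to 5.62 times less FPKM with metformin across the preparations, and SGCE 2.54 to 3.98 times less. In each of the 4 preparations PEG10 changed more than SGCE, by -0.52, -0.43, -1.10 and -0.70 (mean -0.69 ± 0.30, SD, n = 4). The level of PEG10 relative to SGCE was 10.2, 20.2, 5.83 and 6.68 in the metformin libraries of preparations 1 to 4, against 14.3, 27.0, 12.4 and 10.7 in the basal libraries. Preparation 2 thus had the highest ratio in both groups, and the ratio was lower with metformin in every preparation. The pair was chosen with its values known, so this difference was not tested.

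**Figure D2:**
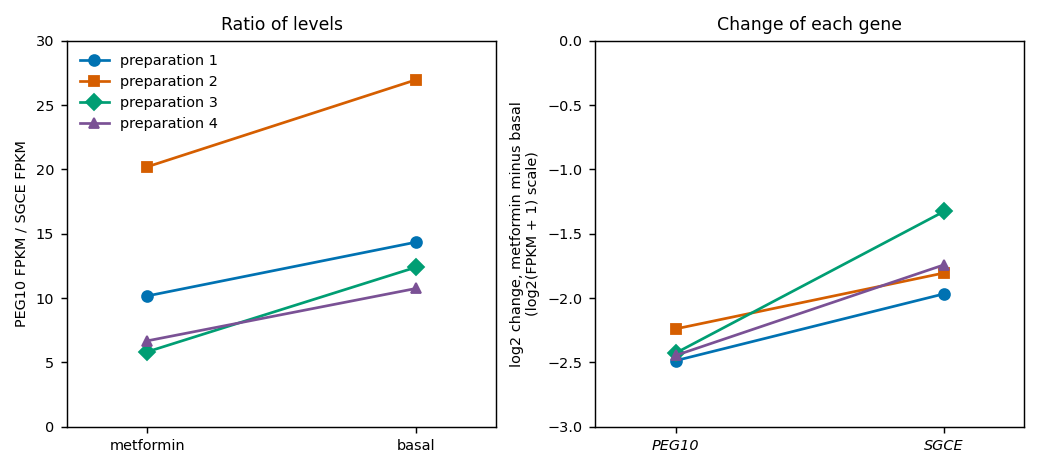
Left, PEG10 FPKM divided by SGCE FPKM in metformin and basal libraries; right, the log2 change of each gene, metformin minus basal, with lines joining values of 1 preparation. The ratio is lower with metformin in all 4 preparations, and the change of PEG10 is larger than that of SGCE in each.

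The change of PEG10 was nearly the same in each preparation although its level was not. Its log2 changes were -2.49, -2.24, -2.43 and -2.45, with an SD of 0.11, at percentile 8.01 of the SDs of all genes tested. PEG3 also had an even change, with an SD of 0.14 at percentile 13.5. The changes of DIRAS3, MAGEL2 and DLK1 varied more, with SDs of 0.57, 0.59 and 0.69 at percentiles 91.8, 92.8 and 95.6. These percentiles were taken over all genes tested and not over genes of like level. By basal level PEG10 stood at percentile 99.7 and MAGEL2 at 27.4.

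DIRAS3 encodes a small GTPase of the RAS family that restrains growth in human cells and takes part in autophagy. It had 49.4, 84.7, 43.3 and 32.2 FPKM in the metformin libraries of preparations 1 to 4, against 709, 868, 241 and 289 FPKM in the basal libraries. The groups were far apart. Basal libraries of preparations 1 and 2 were well above those of 3 and 4, while with metformin preparation 2 was the highest and preparation 4 the lowest. The log2 change was -3.18 ± 0.21, which placed DIRAS3 at number 9 from the lowest among all genes tested. By preparation, FPKM was 14.4, 10.2, 5.57 and 8.99 times lower with metformin.

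NNAT encodes neuronatin, a small membrane protein of the endoplasmic reticulum that is best known from the developing brain and from insulin-secreting cells. It had 78.7, 518, 54.8 and 48.3 FPKM in the metformin libraries of preparations 1 to 4, against 665, 3909, 315 and 303 FPKM in the basal libraries. Preparation 2 stood far above the others in both groups, at 8.54 times the mean of the other 3 preparations with metformin and 9.14 times in basal libraries. Because of this preparation the groups overlapped, although NNAT was lower with metformin in all 4 pairs, by 5.75 to 8.45 times. The log2 change was -2.78 ± 0.13, and -2.73 without preparation 2. The highest NNAT library was 10.7 times the lowest with metformin and 12.9 times the lowest in basal libraries, the widest ranges of the 10 genes.

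Preparation 2 also differed in markers of other cell types. Summed FPKM of 10 endothelial markers was 79.5 in its metformin library and 99.2 in its basal library, against 153.7 to 293 and 220.0 to 384 in the other preparations. The 6 measured erythroid markers summed to 3.31 with metformin and 1.61 in the basal library of preparation 2, against 18.2 to 58.2 and 16.7 to 71.7 elsewhere. Neural markers, of interest for NNAT, were lowest there too: the 7 measured summed to 33.7 with metformin and 40.01 basal, against 73.1 to 102.1 and 95.03 to 108.1 in the other preparations. Macrophage and leukocyte markers were also lowest in preparation 2, at 1133 with metformin and 931 basal, against 1518 to 1938 and 1217 to 1967 in the other preparations. Summed markers of stellate cells and fibroblasts, of cholangiocytes, of hepatocytes and of hepatoblasts were neither the highest nor the lowest there in either group, and those of dividing cells were lowest there with metformin but not in basal libraries. The part of these differences in the level of NNAT was not tested. Of the 10 genes, 7 had their highest basal library in preparation 2, as did 20.4% of all genes tested, and 7 had their highest metformin library there, as did 22.9%.

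MEST encodes a protein of the hydrolase fold family that is made widely in the mesoderm of embryos. It had 6.42, 12.7, 5.42 and 3.54 FPKM in the metformin libraries of preparations 1 to 4, against 24.4, 32.5, 11.6 and 9.20 FPKM in the basal libraries. The order of preparations was the same in both groups, with 2 the highest and 4 the lowest. The groups overlapped, since the metformin library of preparation 2 was above both of the lowest basal libraries, yet MEST was lower with metformin in each pair (log2 change -1.30 ± 0.15).

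PEG3, a zinc finger protein linked to growth and maternal behaviour in mouse, had 50.0, 103, 82.2 and 58.9 FPKM in the metformin libraries of preparations 1 to 4. Its basal libraries had 121, 277, 180 and 156 FPKM. The groups did not overlap, and the order of preparations was the same in each (log2 change -1.29 ± 0.10).

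MAGEL2, a gene of the Prader-Willi region whose protein takes part in ubiquitin-dependent sorting of membrane proteins, had 1.88, 3.00, 5.72 and 1.98 FPKM in the metformin libraries of preparations 1 to 4, against 7.01, 8.49, 7.39 and 8.32 FPKM in the basal libraries. Basal libraries were close together, and the metformin library of preparation 3 was the highest of its group. The log2 change was -1.17 ± 0.22, with -0.32 in preparation 3 and -1.25 to -1.64 in the others.

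GNAS, the stimulatory G protein subunit that couples hormone receptors such as that of glucagon to cyclic AMP, was the most even of the 10 between untreated preparations. It had 172, 205, 154 and 147 FPKM in the metformin libraries of preparations 1 to 4, against 241, 238, 241 and 231 FPKM in the basal libraries. The groups did not overlap. The log2 change was -0.49 ± 0.12, and its call ended without preparation 1, 3 or 4, where the change was -0.50, -0.44 and -0.44. The locus makes several transcripts that overlap, and the row of the table sums or picks among them in a way that is not given in the sources used here.

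DLK1, a membrane ligand related to the Notch ligands and a marker of fetal liver progenitors, had no common direction. It had 71.97, 58.6, 54.1 and 55.3 FPKM in the metformin libraries of preparations 1 to 4, against 60.6, 61.8, 96.5 and 134 FPKM in the basal libraries. Preparation 1 was higher with metformin, preparation 2 was close to even, and preparations 3 and 4 were lower. The log2 change was -0.48, with a 95% interval of -1.06 to 0.10.

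GRB10, an adaptor protein that binds the insulin and IGF1 receptors and dampens their signal, was the only one of the 10 genes that was higher with metformin. It had 48.5, 30.7, 49.4 and 41.1 FPKM in the metformin libraries of preparations 1 to 4, against 24.3, 17.9, 37.0 and 30.4 FPKM in the basal libraries. It was higher in all 4 pairs although the groups overlapped, and preparation 2 was the lowest in each group, the reverse of PEG10, NNAT, MEST and PEG3 (log2 change 0.64 ± 0.13).

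**Figure D3:**
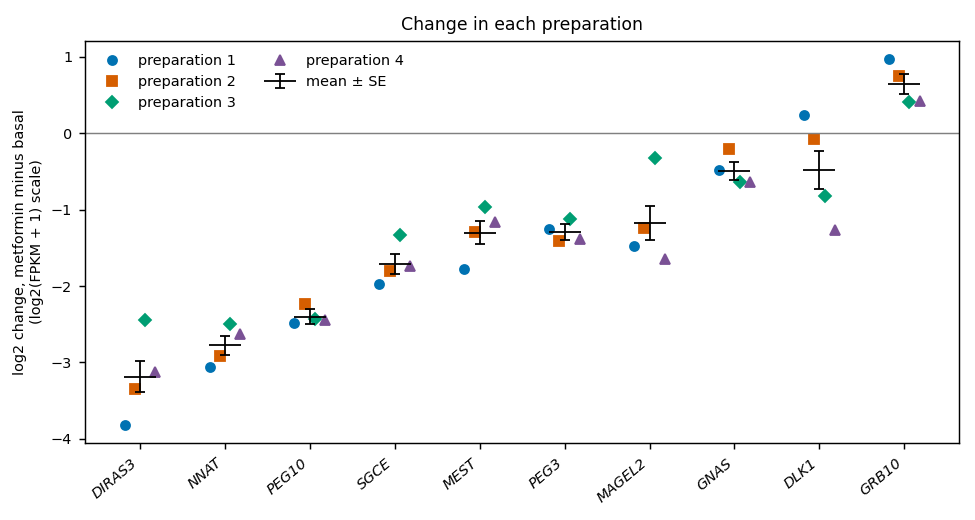
Log2 change, metformin minus basal, of the 10 imprinted genes in each of 4 preparations, with the mean and its standard error from the fit. Changes run from -3.18 for DIRAS3 to 0.64 for GRB10, and only DLK1 has preparations on both sides of 0.

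Calls were also counted in lists of cell type markers. Of all genes tested 24.1% fell and 19.8% rose, and the counts in these short lists are to be read beside those shares. Among 11 tested markers of stellate cells and fibroblasts 8 fell and the others did not pass, and summed FPKM was 794 to 2121 in metformin libraries and 1772 to 3670 in basal libraries. Of 9 tested endothelial markers 5 fell and the others did not pass (79.5 to 293 with metformin, 99.2 to 384 basal), and of 9 macrophage and leukocyte markers 4 fell and 1 rose (1133 to 1938 with metformin, 931 to 1967 basal). Of 10 hepatocyte markers 6 fell and 1 rose (10871 to 26736 with metformin, 20344 to 32175 basal), and of 7 hepatoblast markers, which include DLK1, 2 fell and 1 rose (539 to 1164 with metformin, 601 to 1286 basal). Of 5 cholangiocyte markers 2 fell and 1 rose (1260 to 4246 with metformin, 1398 to 8748 basal). Of 6 tested markers of dividing cells 6 fell (76.7 to 108.8 with metformin, 168 to 254 basal), and CCNB1 of that list was listed at 0 in all libraries. None of 5 tested erythroid markers passed in limma (3.31 to 58.2 with metformin, 1.61 to 71.7 basal), and their median log2 change was 0.23. AHSP and KLF1 of that list, named after their values were seen, had an unadjusted p of 0.0293 and 0.0246 in limma, and no change of the list is read from them. Of 4 neural markers 2 rose and 1 fell (33.7 to 102.1 with metformin, 40.01 to 108.1 basal). In bulk RNA, fewer cells of a type and less RNA per cell cannot be told apart, and the part of these lists in the changes of the 10 genes was not tested.

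Genes beside the 10 on the chromosome moved in both directions. Among up to 4 protein-coding genes on each side in the RefSeq order, 69 genes that are not among the 10 were found, 45 matched the table by name and 32 were tested. Of these 7 rose and 8 fell, which is 46.9% against 43.9% of all genes tested, with a median log2 change of -0.07.

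A second list of genes from the regions around the 10, not bound to this order, had 38 tested, of which 10 rose and 10 fell, 52.6% in all. Around PEG10 and SGCE, CASD1, an enzyme that modifies sialic acid and the next gene on the side of SGCE, had 4.82, 7.27, 6.10 and 8.07 FPKM in metformin libraries and 6.81, 7.51, 8.20 and 7.49 FPKM in basal libraries. Its groups overlapped and it did not pass (log2 change -0.19, 95% interval -0.50 to 0.13, adjusted p = 0.287 in limma). PPP1R9A, a phosphatase-binding protein on the side of PEG10, fell by 0.95 on the log2 scale (adjusted p = 0.00393). It is reported as imprinted in some tissues. Of 8 tested genes in a wider list of this region 5 fell and 1 rose, TFPI2. PDK4, a kinase that closes the entry of pyruvate into mitochondria, fell to 9.35 ± 6.51 FPKM with metformin, against 28.9 ± 15.04 in basal libraries (SD, n = 4 each; adjusted p = 0.00158 in limma), and PON3, a lactonase, fell to 1.03 ± 0.719 against 4.18 ± 2.81 FPKM (adjusted p = 0.00137 in limma).

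NNAT lies within an intron of BLCAP in human and mouse. BLCAP had 67.2, 69.3, 54.4 and 61.2 FPKM in metformin libraries, against 55.2, 84.4, 69.6 and 75.7 FPKM in basal libraries, and did not pass (log2 change -0.16, 95% interval -0.48 to 0.16, adjusted p = 0.356 in limma). It lacked the height of NNAT in preparation 2. Of 6 tested genes in the second list for NNAT 3 rose and the others did not pass: the tyrosine kinase SRC by 1.15, the transglutaminase TGM2 by 1.43 and MANBAL by 0.34. TTI1, named after its values were seen, is not in that list. It lies at place 3 from NNAT in the RefSeq order and fell (log2 change -0.48, adjusted p = 0.0255 in limma). Near DIRAS3, 2 of 4 rose and the others did not pass: GADD45A, a stress and damage response gene, by 1.71 and WLS, which carries WNT ligands to the surface, by 0.49. GADD45A averaged 426 ± 179 FPKM with metformin and 122 ± 27.1 in basal libraries (SD, n = 4 each), so a gene close to the most strongly lowered of the 10 was higher. Beside MEST, COPG2, a coat protein of Golgi vesicles, rose by 0.44, and CEP41, a centrosome protein, fell by 0.62, both of the tested genes of that list.

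The imprinted USP29, a deubiquitinase that shares the promoter region of PEG3 in mouse and human, fell to 3.24 ± 1.59 FPKM with metformin, against 7.41 ± 4.05 in basal libraries (log2 change -0.94, adjusted p = 0.00985 in limma), and was the 1 tested gene of its neighbourhood. Of 3 tested genes near MAGEL2 none passed in limma, and none had an unadjusted p under 0.05: SNRPN had a log2 change of 0.06, and UBE3A and ATP10A, named after their values were seen, had 0.14 and -0.24. Of 5 near GNAS 1 rose, PRELID3B by 0.90, and 1 fell, NPEPL1 by -0.84. Of 5 near DLK1 1 rose, BEGAIN, and of 4 near GRB10 1 rose, the actin regulator COBL by 0.52, and 2 fell, the decarboxylase DDC by -0.96 and FIGNL1 by -0.67. The calls of MANBAL, WLS and COBL each ended without at least 3 of the 4 preparations in turn, with adjusted p of at most 0.0947 in limma.

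**Figure D4:**
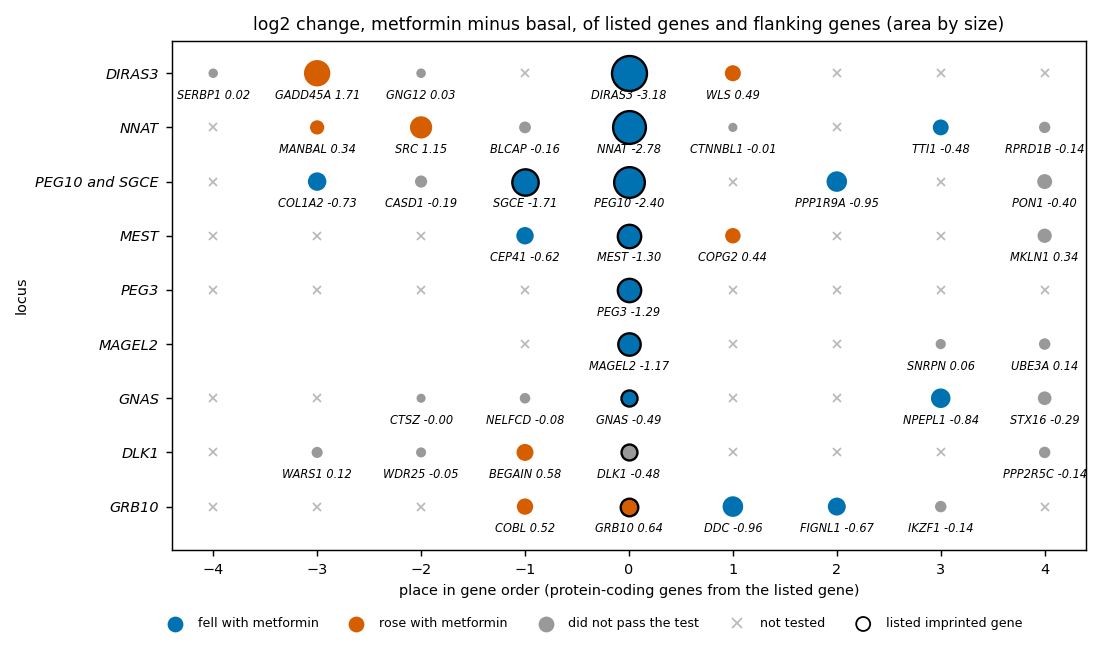
The 10 imprinted genes (ringed) and protein-coding genes up to 4 places away in the RefSeq order, with log2 changes, metformin minus basal, printed below and shown by area. Colours mark genes that fell, rose or did not pass. GADD45A at place -3 from DIRAS3 rose by 1.71, and SRC at place -2 from NNAT rose by 1.15.

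A list of 63 further imprinted genes, which holds none of the 10, had 43 names in the table, of which 26 were tested. Of these 3 rose and 7 fell, 38.5% against 43.9% of all genes tested, with a median log2 change of -0.20. Of the 8 tested genes listed as paternally expressed 1 rose and 2 fell, and of the 18 listed as maternally expressed 2 rose and 5 fell. Imprinting can differ between species and tissues, and it was not measured in these cells. Among the names that were not tested, ZDBF2, HYMAI, ZIM3 and ZNF597 were listed at 0 in every library.

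The growth factor IGF2 and the receptor that clears it, IGF2R, are imprinted in opposite ways, and both were lower. IGF2R had 88.0, 151, 112 and 85.2 FPKM in metformin libraries, against 174, 251, 203 and 204 FPKM in basal libraries, and no metformin library reached a basal one (log2 change -0.95 ± 0.12, adjusted p = 0.00177 in limma). IGF2 had 380.0, 389.7, 344 and 203 FPKM with metformin, against 438, 525, 583 and 395 FPKM in basal libraries, a smaller change (-0.59 ± 0.14, adjusted p = 0.0169 in limma) that did not pass without preparation 3 (0.0604) or 4 (0.0630).

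GATM, an enzyme of creatine synthesis, had 183, 388, 104.9 and 98.8 FPKM with metformin, against 363, 794, 172 and 195 FPKM in basal libraries (log2 change -0.92 ± 0.11, adjusted p = 0.00143 in limma). As for PEG10, preparation 2 was the highest in both groups and preparation 1 the next. With metformin the order of preparations 3 and 4 was the reverse of that of PEG10. The tetraspanin CD81 fell by 0.43 and the matrix protein decorin, DCN, by 0.44, with adjusted p of 0.0156 and 0.0424 in limma. DCN is also 1 of the fibroblast markers that fell. BEGAIN, beside DLK1, rose by 0.58, TFPI2, a protease inhibitor, by 0.52 and COPG2 by 0.44, with adjusted p of 0.0437, 0.0233 and 0.0139 in limma. Leaving out a preparation ended the calls of CD81 (without 1 or 4), DCN (without 2, 3 or 4), BEGAIN (without 1, 2 or 4), TFPI2 (without 2 or 3) and COPG2 (without 1), with adjusted p of at most 0.142. PLAGL1, a zinc finger regulator of other imprinted genes in mouse, had 17.4 ± 4.97 FPKM with metformin and 16.8 ± 6.71 in basal libraries (SD, n = 4 each; log2 change 0.08, 95% interval -0.20 to 0.36, adjusted p = 0.603 in limma). H19, CDKN1C, MEG3 and NDN matched no row by name and were not analysed here.

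**Figure D5:**
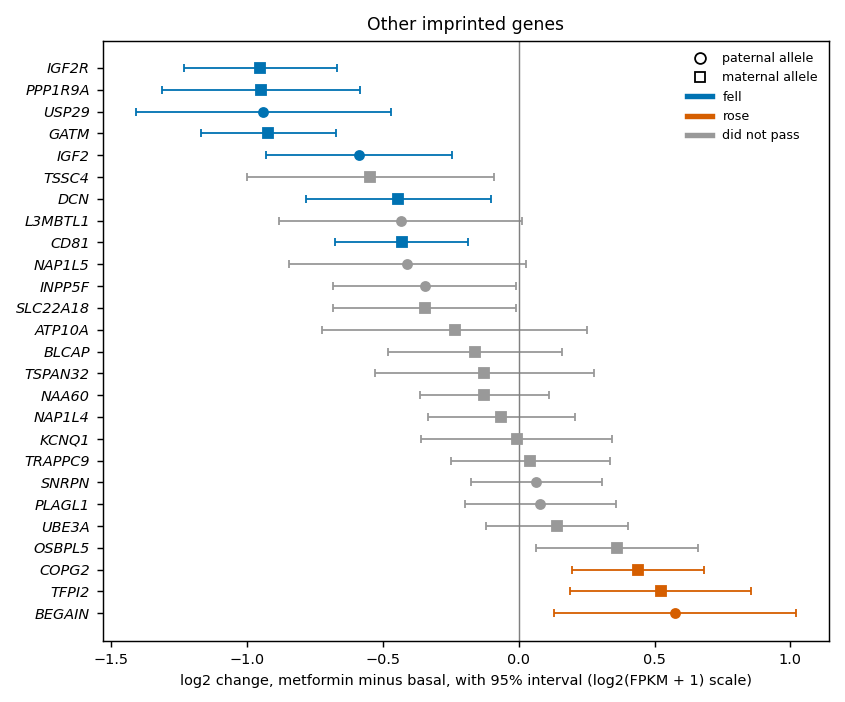
Log2 change, metformin minus basal, with 95% intervals for the 26 tested imprinted genes outside the 10. Symbols give the parental copy under which a gene was listed (circles paternal, squares maternal), which was not measured here. Of these 7 fell, 3 rose and 16 did not pass, and changes run from -0.95 for IGF2R to 0.58 for BEGAIN.

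Genes that write, read or erase DNA methylation and keep imprints were measured as a list of 22, of which 18 were tested. Of these 4 rose and 4 fell, 44.4% in all, close to the 43.9% of all genes tested. The 3 with the lowest p are given. TET3, a dioxygenase that oxidises methylated cytosine, rose to 24.8 ± 6.13 FPKM with metformin, against 5.70 ± 1.82 in basal libraries (SD, n = 4 each; adjusted p = 0.000335 in limma). UHRF1, which brings the maintenance methyltransferase to replicated DNA, fell to 3.08 ± 1.63 against 11.7 ± 4.73 FPKM (adjusted p = 0.000948 in limma), and the helicase HELLS fell to 2.05 ± 0.370 against 5.90 ± 1.65 FPKM (adjusted p = 0.00144 in limma). Markers of dividing cells fell in the same libraries, as given above.

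Partners of the 10 proteins were listed by pathway, and of 85 tested rows 20 rose and 18 fell, 44.7% in all, close to the share of all genes. Insulin and IGF receptor signalling, where GRB10 acts, had 4 of 11 rise and 1 fall. The substrate IRS1 averaged 230.4 ± 52.4 FPKM with metformin and 64.0 ± 8.52 in basal libraries (SD, n = 4 each), and rose by 1.81 on the log2 scale, the receptor INSR by 1.49 and the exchange factor SOS1 by 0.81. Cyclic AMP signalling, which GNAS feeds, had 4 of 17 rise and 6 fall, among them the glucagon receptor GCGR, which fell by 1.06, and the kinase subunit PRKACA, which fell by 0.56. The Notch pathway had 3 of 14 rise, the ligand JAG1 by 1.03, HES1 by 0.50 and RBPJ by 0.40, and 1 fall.

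The sarcoglycan and dystroglycan complex of SGCE had 1 of 10 rise, DTNB by 0.56, and 3 fall, among them SGCB by -0.56 and the syntrophin SNTB1, which averaged 23.0 ± 9.41 FPKM with metformin and 46.2 ± 17.6 in basal libraries (SD, n = 4 each). RAS-related genes and autophagy partners of DIRAS3 had 3 of 9 rise, among them RASD1 by 2.48 and HRAS by 0.87, and 2 fall, among them STAT3 by -0.56. PEG10 relatives and partners had 2 of 4 fall, ATXN10 by -0.76 and PNMA1 by -0.64. Calcium pump and signal peptidase genes around NNAT had 1 of 8 rise, ATP2A2 by 0.51, and 2 fall, ATP2A3 by -0.44 and SPCS1 by -0.52. MAGEL2 partners had 1 of 5 rise, VPS26A by 0.46. PEG3 partners had 3 of 5 rise, SIAH1 by 0.63, BAX by 0.65 and AXIN1 by 0.40. Of the pair of WNT coreceptors listed for MEST, LRP5 fell by 0.90. Adjusted p for the genes named in these lists was at most 0.0380 in limma, and leaving out at least 1 preparation ended the calls of HES1, RBPJ, PNMA1, ATP2A2, ATP2A3, SPCS1, VPS26A, BAX and AXIN1.

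The genes whose levels followed PEG10 most closely over the 8 libraries (Pearson r of log2(FPKM + 1) among 10828 tested genes with a symbol) were PROS1, the gene of protein S of the clotting system, the transcription factor PROX1 and KLB, the co-receptor of FGF21, with r of 0.988, 0.988 and 0.987. KLB had 6.19, 11.5, 3.32 and 3.94 FPKM with metformin, against 45.8, 69.0, 19.4 and 21.7 FPKM in basal libraries, with preparation 2 the highest in both groups. NNAT was followed by GOLT1A, DECR2, a peroxisomal fatty acid enzyme, and MUM1L1, with r of 0.998, 0.991 and 0.991. GOLT1A had 1.25, 6.86, 1.13 and 0.792 FPKM with metformin, against 7.34, 23.8, 4.72 and 4.10 FPKM in basal libraries. DIRAS3 was followed by the catalase gene CAT, by ARHGAP1 and by the splicing regulator ESRP2, with r of 0.996, 0.993 and 0.992. These 8 libraries share 4 preparations and 1 treatment, so a gene that falls and has the same order of preparations reaches a high r, and nothing more is read from it.

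In the authors' deposited table the signed fold change was largest in size for DIRAS3 (-10.06), NNAT (-7.42) and PEG10 (-5.11). Of the 10 genes, 8 had a deposited q-value under 0.05. The share of all rows under that cut was not taken. The q-values come from the same libraries and the genes were chosen on this contrast, so the count is no independent support. In the authors' deposited table DLK1 had a q-value of 0.291 and MAGEL2 had none.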

How the data were processed

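The authors deposited 1 table with FPKM values per gene and library, and the submitters' processing notes name Cufflinks and Oar_v3.1. The aligner, annotation release and versions are not given in the sources used here. Per the file headers it also holds group means, a signed fold change (a score), a p-value and a q-value (listed as 99 for MAGEL2). A placeholder in 4 cells, none of the 10 genes, was treated as missing. Library sums of FPKM were 1024540 to 1257760. Absolute depth is unknown and no counting interval is given; steps among low values put the depth relative to the basal library of preparation 1 at 0.865 to 1.09 in metformin and 0.807 to 1.00 in basal libraries.

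Genes that reached 1 FPKM in 4 or more of 8 libraries were tested with limma 3.58.1 (R 4.3.3) on log2(FPKM + 1), blocking on preparation, with a trended prior variance and 2-sided p-values adjusted by Benjamini-Hochberg over 13141 genes at 0.05. Standard errors use moderated variances (prior df 4). The labels give each preparation 1 library per group, and deviations of the 2 libraries from their group means correlated across genes with r of 0.489 to 0.585. The fit was run on simulated data with far fewer changed genes than were called here, so nothing about the calls is read from that run. The members and lists were chosen with earlier results of these data known. Named genes are the 10, further imprinted genes that passed or were listed whatever their values, and up to 3 with the lowest p per list, and the 3 genes most like PEG10, NNAT and DIRAS3. Of these, 1 gene is not reported here. The RefSeq annotation of ARS-UI_Ramb_v3.0 gave gene order only, chosen after seeing the data. The alternatives were other filters, another pseudocount, 2 rescalings, no trend, no block and leaving out each preparation.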

Additional observations from a re-analysis of the deposited data

Results flagged for a closer look

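Over the 10 genes, levels with metformin, basal levels and log2 changes made 30 groups of 4 values, and 3 held a value far from the others. Independent values from a normal distribution would give about 1 in 20. The groups share preparations and the log2 changes come from the same levels, so the 3 are not set against that rate. All 3 were in preparation 2. NNAT had 518 FPKM in the metformin library of preparation 2, with a gap to the next library of 0.935 of the range of its group, and 3909 FPKM in the basal library, with a gap of 0.900 of the range. PEG10 had 1042 FPKM in the metformin library of preparation 2, with a gap of 0.831 of the range. No log2 change stood apart in this way, but changes were on the log2 scale and levels were not, so the comparison is not like for like.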

How the results depend on the processing

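All 10 log2 changes kept their sign under the 11 alternatives, and each moved by less than the SD between preparations. The median of all genes moved by less than 0.1 under each rescaling. Without the replicate block 1272 genes rose and 1246 fell, of the 10 genes 6 fell and 0 rose (NNAT, MEST and GRB10 lost their calls), and of the further imprinted genes 1 rose (COPG2) and 1 fell (IGF2R); calls of 24 other named genes ended. The preparation pairs both libraries, so the block is kept in the values reported. With no filter on low values 1 of the further imprinted genes rose, and 10 other named genes lost their calls (TFPI2, DCN, BEGAIN, COBL, WLS, ATP2A2, ATP2A3, SPCS1, VPS26A and BAX, adjusted p of at most 0.0828 in limma). Leaving out 1 preparation gave 1679 to 2307 rising and 1995 to 2923 falling genes, 1 to 3 rising and 4 to 8 falling further imprinted genes, and a PEG10 minus SGCE difference of -0.77 to -0.55; of the 51 other named genes with a call, 18 lost it. The number of libraries and the unknown depth limit what can be called.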
